A study of Schizosaccharomyces pombe with 8 samples.

Results

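The polysome association of mRNAs in fission yeast (Schizosaccharomyces pombe) cells that lack Slr1p was examined by setting the slr1- polysome RNA libraries against the slr1- total RNA libraries. These were 4 of the 8 libraries of the series, 2 of each kind, chosen by their titles, and all 527 genes of the deposited count table whose identifier starts with SP were used. The groups were slr1- polysome RNA and slr1- total RNA, from cells labelled as a knockout, and WT polysome RNA and WT total RNA, from strain yAS99. How the slr1 gene was removed is not given in the sources used here, and the slr1 transcript was not analysed here. The medium was YES, made from yeast extract, at 32 °C with shaking, and all groups carry the same treatment label of 100 µg/mL cycloheximide, a drug that arrests ribosomes on mRNA. The labels call the 2 libraries of each group biological replicates but give no culture for them, so the p-values measure the spread between these libraries.

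In fission yeast Slr1p is the counterpart of LARP1, an RNA-binding protein that in mammals binds mRNAs with a terminal oligopyrimidine (TOP) tract at the cap, most of which encode ribosomal proteins and translation factors. An mRNA that is being translated carries several ribosomes at once and sediments as a polysome, so an mRNA's level in polysome RNA relative to total RNA tells how it is distributed relative to other mRNAs. Ribosomal protein mRNAs of yeasts are short and abundant. Proteins of the endoplasmic reticulum (ER) and some mitochondrial proteins are made by ribosomes held at membranes, and the mitochondrial genome is translated by separate ribosomes inside the organelle.

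The listed genes held 633394 and 666057 counts in the slr1- polysome libraries and 1110838 and 984147 counts in the slr1- total libraries. Reads of unlisted genes are missing from these sums, which therefore do not give library depth. The median gene had 627 counts per library over all 8 libraries and the lowest mean was 161. Replicates differed with an SD of the log2 ratio over genes of 0.25 in slr1- polysome RNA and 0.28 in slr1- total RNA. The authors label each listed gene with a change type ("both" or "translational_only"), but the rule by which the genes were chosen is not stated, so counts of genes describe the listed genes and not the transcriptome. Levels are given as normalised counts, the counts scaled by TMM factors (trimmed mean of M values) to the mean library, and differences as log2 of polysome over total RNA with the standard error (SE) of the fit. All of them are relative among the listed genes. The libraries are bulk RNA, so fewer cells with an mRNA and less of it per cell cannot be told apart, and neither fraction's amount of RNA per cell was measured.

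In slr1- cells 341 of the 527 genes (64.7%) differed between polysome and total RNA in the edgeR quasi-likelihood test at an adjusted p under 0.05. In polysome RNA 179 genes were higher (34.0%) and 162 lower (30.7%), and 186 did not pass. All listed genes of the cytosolic chaperonin (7) and the eIF3 initiation complex (10) and most of those for tRNA synthetases (12 of 18) and ribosome assembly (11 of 15) were higher in polysome RNA. Most genes of the mitochondrial genome (9 of 10), the ER folding machinery (3 of 4) and the cytosolic ribosome (83 of 126) were lower. Differences of at least 2-fold were seen for 66 higher and 64 lower genes, and 14 genes were lower by at least 4-fold. The 2 polysome libraries did not overlap with the 2 total libraries in 179 of the 179 higher and 161 of the 162 lower genes, beside 44.2% of all listed genes that lay higher without overlap and 39.3% that lay lower without overlap. The log2 differences ran between -5.32 and 1.89, with a median of 0.06 and quartiles of -0.51 and 0.55. The lowest count of a listed gene was 111 and 142 in the slr1- total libraries and 256 and 177 in the WT total libraries. In the slr1- polysome libraries it was 37 and 12. Whether genes with few total RNA counts were left out of the deposited table is not stated, so the sizes of rises and falls are not compared.

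The split between higher and lower genes depended on the scaling. With library sizes alone the median of all genes was 0.41 higher and 292 genes were called higher and 94 lower. With TMM factors computed without ribosomal protein genes the median was 0.37 lower, and 100 genes were called higher and 246 lower. Such factors move all genes alike, so list medians below are to be read beside that of all genes (0.06). Counts of calls in a list are to be read beside the 34.0% of all listed genes that rose and the 30.7% that fell. Of the 401 genes outside the large and small subunit ribosomal protein lists 174 rose and 79 fell. They include ubi1, ubi2, ubi3 and ubi5, for ubiquitin fused to a ribosomal protein, and cpc2, for the ribosomal protein RACK1.

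**Figure D1:**
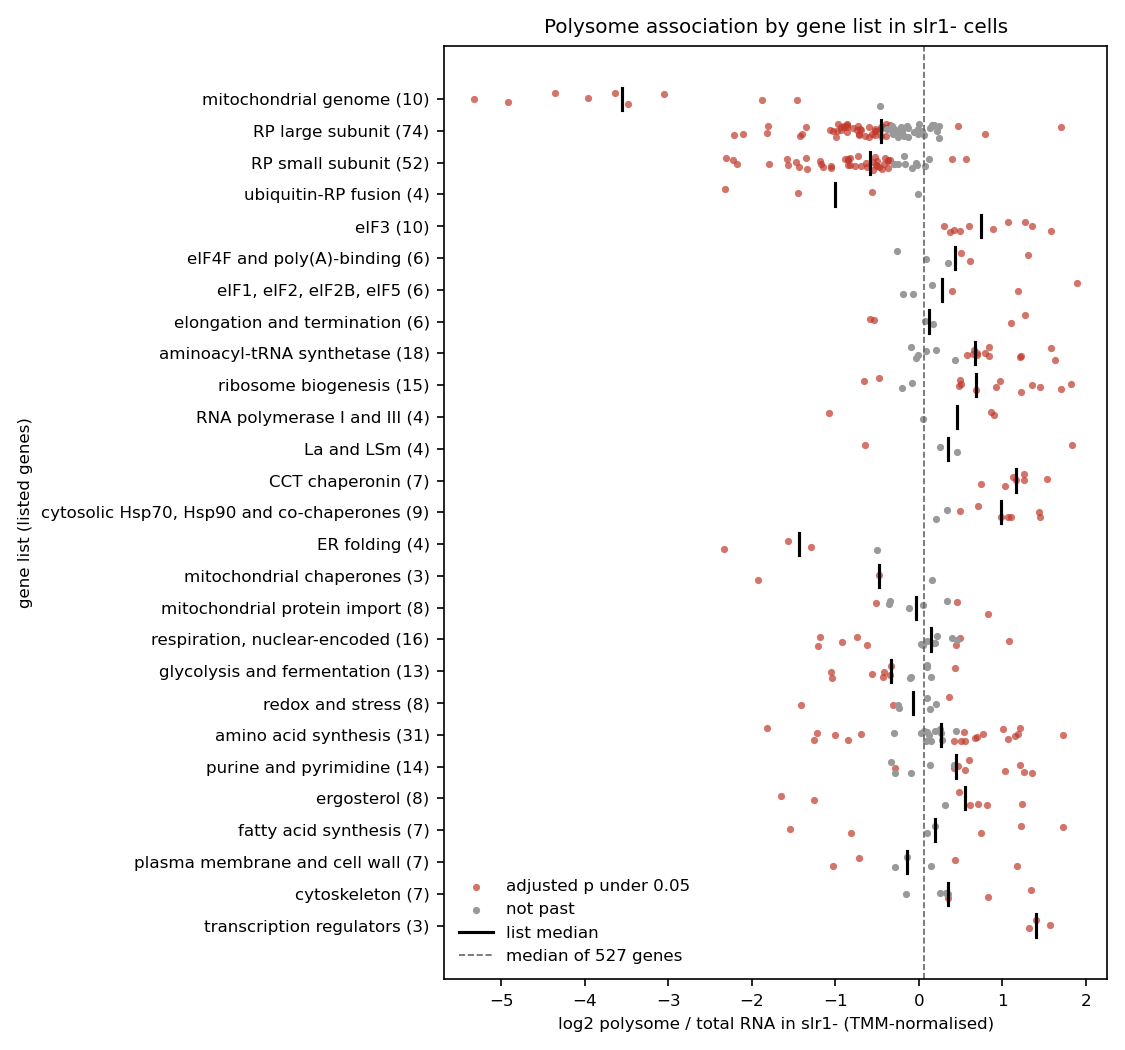
Each point is a listed gene, placed by its log2 difference of slr1- polysome over slr1- total RNA (horizontal axis, TMM-normalised) in the row of its gene list, with the number of listed genes in brackets. Red points passed the edgeR test at an adjusted p under 0.05, grey ones did not, black bars are list medians and the dashed line is the median of the 527 genes (0.06). Among the lists drawn, which have at least 3 genes each, the mitochondrial genome lies farthest to the left (median -3.56) and the transcription regulators (1.40) and the CCT chaperonin (1.16) farthest to the right. The lists were chosen with earlier results of these data known.

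The largest falls belonged to the mitochondrial genome, whose genes carry the prefix SPMIT and have no name in the reference used. Of the 10 listed SPMIT genes, 9 were lower in slr1- polysome RNA and 0 were higher, with a median of -3.56. Together they held 0.448% (95% Wilson interval 0.432 to 0.465) and 0.309% (0.296 to 0.323) of the listed counts in the slr1- polysome libraries, against 3.98% (3.95 to 4.02) and 4.43% (4.39 to 4.47) in the slr1- total libraries. These intervals cover counting error only. SPMIT.10.1 had 256 and 257 normalised counts in slr1- polysome RNA and 10920.5 and 9613 in slr1- total RNA, a log2 difference of -5.32 ± 0.12. SPMIT.07.1 had 159 and 116 in slr1- polysome RNA and 3962 and 4354 in slr1- total RNA (log2 -4.92 ± 0.22). SPMIT.11.1 had 562 and 408 in slr1- polysome RNA and 9174 and 10673 in slr1- total RNA (log2 -4.36 ± 0.17). In each of these 3 genes both polysome libraries lay more than an order of magnitude below both total libraries. The 10 genes were not alike. SPMIT.03.1, named after its values were seen, was the gene that did not pass, with 132 and 67.4 normalised counts in slr1- polysome RNA and 113 and 164 in slr1- total RNA, which overlap, and its log2 difference was -0.47 ± 0.30. The list was lower under every scaling tried.

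**Figure D2:**
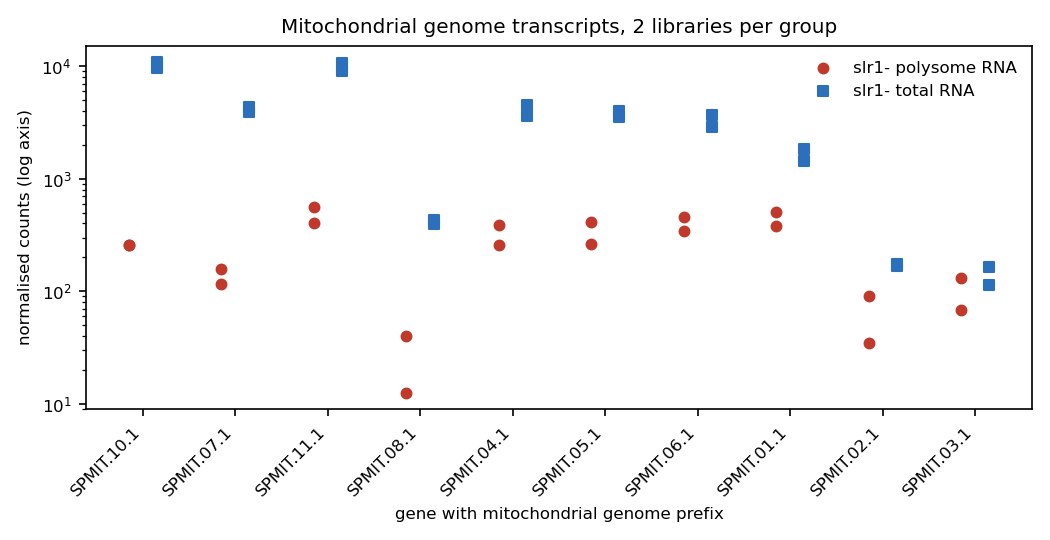
Normalised counts (vertical log axis) of the 10 mitochondrial genome genes in the 2 slr1- polysome libraries (red circles) and the 2 slr1- total libraries (blue squares), ordered by log2 difference. The groups are apart in 9 genes and overlap in SPMIT.03.1, and SPMIT.10.1 has the widest gap, with 256 and 257 in polysome RNA against 10920.5 and 9613 in total RNA.

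Cytosolic ribosomal protein genes, 126 of the listed genes, were mostly lower in slr1- polysome RNA. Of these, 83 (65.9%) fell, 5 rose (3 with either slr1- polysome library left out or without replicate 2 of WT polysome RNA) and 38 did not pass, beside 30.7% of all listed genes that fell, and 110 had a negative difference. Their median was -0.52, against 0.26 for the 401 other genes, of which 174 rose and 79 fell. The ribosomal protein genes took 42.1% and 43.2% of the listed counts in the slr1- polysome libraries (Wilson intervals 41.9 to 42.2 and 43.1 to 43.3), against 54.3% and 50.3% in the slr1- total libraries (54.3 to 54.4 and 50.2 to 50.4). With library sizes alone 49 ribosomal protein genes fell and 24 rose, and with factors computed without them 106 fell and 2 rose. The gap between their median and that of the other genes was -0.77 with TMM, -0.78 with library sizes alone and -0.78 with factors computed without them. Without replicate 1 of slr1- total RNA the gap was -0.65, and without its replicate 2 it was -0.95.

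Of the small subunit genes 40 of 52 fell and 2 rose (median -0.59), and of the large subunit genes 43 of 74 fell and 3 rose (median -0.45). The largest fall of a small subunit gene was that of rps1702, a gene for eS17, with 1082 and 1288 normalised counts in slr1- polysome RNA and 5849 and 5933 in slr1- total RNA (log2 -2.31 ± 0.12, 4.97-fold lower). The single gene rps21, for S21, had 4042 and 5684 in slr1- polysome RNA and 23821 and 21599 in slr1- total RNA (log2 -2.22 ± 0.15). For the large subunit, rpl4302 (eL43) had 538 and 709 in slr1- polysome RNA and 3250.4 and 2537 in slr1- total RNA (log2 -2.21 ± 0.17). In all 3, which were named among calls without overlap, the polysome values were far below the total values. A gene for the other direction was rpl3402 (L34), with 579 and 503 in slr1- polysome RNA and 141 and 192 in slr1- total RNA, the largest rise of a ribosomal protein gene (log2 1.70 ± 0.18). The acidic stalk proteins P1 and P2 form the arm of the large subunit that recruits translation GTPases. Of their 7 listed genes 2 fell, rpp202 (log2 -2.11 ± 0.35) and rpp102 (log2 -0.86 ± 0.12), and 5 did not pass, and the list had a median of -0.31, but of 0.09 when scaled by library sizes alone. Ubiquitin is also made as fusions to the ribosomal proteins S31 and L40, and 3 of 4 such genes fell and 0 rose (median -1.004; with library sizes alone 2 fell and 1 rose, with a median of -0.60). Of these, ubi5 had 196 and 230.2 normalised counts in slr1- polysome RNA and 1104 and 1021 in slr1- total RNA (log2 -2.32 ± 0.15), and ubi3, which encodes the same S31 fusion, differed by -1.45 ± 0.11.

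Many fission yeast ribosomal proteins are encoded by several gene copies, and the copies differed in slr1- cells. Copies were grouped by gene name, and for 51 names at least 2 were listed. The median gap between the highest and the lowest copy was 0.46 on the log2 scale. The grouping also joined rpl8 (eL8) with rpl801 (uL2), which encode different proteins (gap 0.00088). This pair remains in the counts given here and in those for leaders below. The gap was above 1 for 10 proteins. The eS17 gene rps1701 had a difference of -0.09 ± 0.14 and did not pass, beside -2.31 ± 0.12 for rps1702. The P2 gene rpp203 had -0.23 ± 0.14, which did not pass, beside -2.11 ± 0.35 for rpp202, and the L34 gene rpl3401 had -0.13 ± 0.10, which did not pass, beside a rise of 1.70 ± 0.18 for rpl3402. Copies called in opposite directions were found for 2 proteins. The uL1 gene rpl102 rose (log2 0.79 ± 0.16) and rpl101 fell (-0.60 ± 0.11), and the eS26 gene rps2601 rose (0.40 ± 0.11) and rps2602 fell (-1.80 ± 0.12). The rise of rps2601 did not pass with either slr1- polysome library left out, without replicate 2 of WT polysome RNA, or with factors computed without ribosomal protein genes. In WT, which shares no library with slr1-, the same copy was the higher one for 47 of the 51 names, rpl8 with rpl801 among them. It was so for all 10 with a gap above 1 in slr1-. The gaps were not tested. The copies are near-identical in parts, so that 50 bp reads can be assigned to the wrong copy, and the copies' own values are uncertain to that extent.

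**Figure D3:**
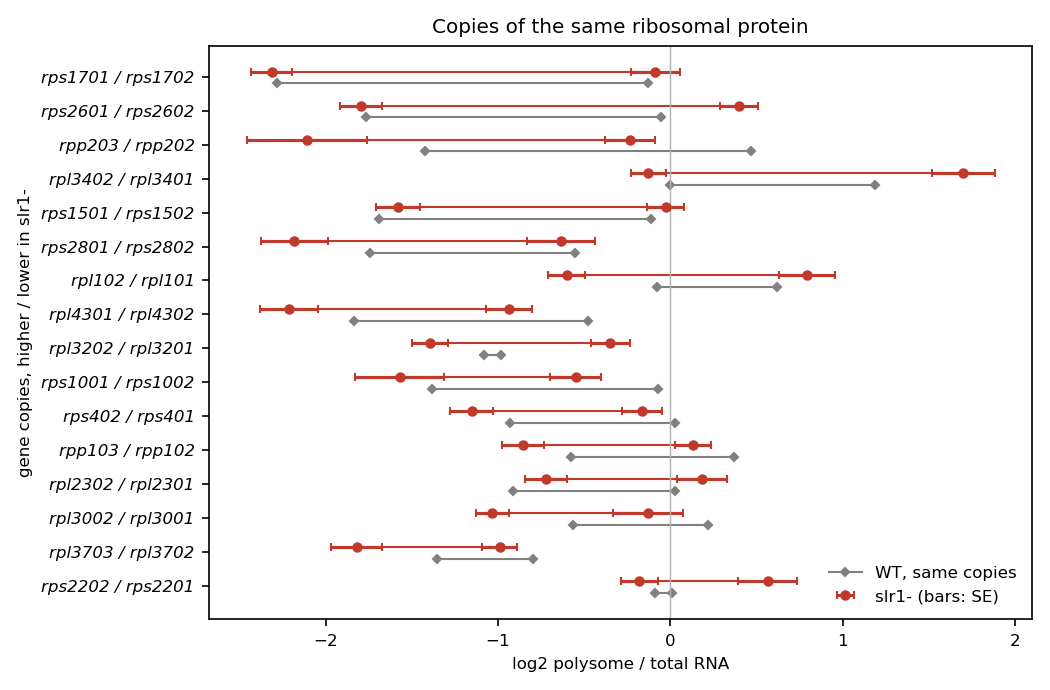
For the 16 ribosomal proteins with the widest gap in slr1-, the highest and lowest copy are joined by a line on the log2 polysome over total RNA axis, with slr1- above (red, bars are SE) and the same copies in WT below (grey). The gap was widest for eS17 (rps1701 at -0.09 and rps1702 at -2.31), and in each of the 16 pairs the copy on the right in slr1- is also on the right in WT.

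Translation initiation factor genes lay on the other side. eIF3 is the large complex that joins the small ribosomal subunit to the mRNA, and 10 of its 10 listed genes rose in slr1- polysome RNA (median 0.74), beside 34.0% of all listed genes. The eIF3b gene tif302 had 876 and 873 normalised counts in slr1- polysome RNA and 263 and 321 in slr1- total RNA (log2 1.58 ± 0.14). The differences of int6, for another eIF3 subunit, and of tif303 (eIF3c) were 1.36 ± 0.14 and 1.28 ± 0.14. Under other settings the eIF3 count was lower or equal, with 5 genes past the threshold with factors computed without ribosomal protein genes, 6 without replicate 1 of slr1- polysome RNA and 7 to 10 with another library left out, and 0 fell in each. Both tif5, for the factor eIF5 that triggers GTP hydrolysis by eIF2, and tif212 (eIF2 beta) rose. Of all listed genes tif5 had the largest rise, with 673 and 696 normalised counts in slr1- polysome RNA and 151 and 219 in slr1- total RNA (log2 1.89 ± 0.19, 3.71-fold higher). In the eIF1, eIF2, eIF2B and eIF5 list 3 of 6 genes rose and 0 fell (median 0.28), and the median turned to -0.11 with factors computed without ribosomal protein genes. Of the cap-binding eIF4F and poly(A)-binding list 3 of 6 rose and 0 fell (median 0.43), led by the scaffold gene tif471 for eIF4G (log2 1.31 ± 0.25). The rises of the helicase gene sum3 (0.61 ± 0.13) and of sce3 (0.51 ± 0.12), a further initiation factor gene, did not pass with those factors.

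Elongation and termination factor genes were divided. The release factor genes erf1 and sup35, whose products eRF1 and eRF3 end translation at stop codons, rose. The erf1 gene had 436 and 418 normalised counts in slr1- polysome RNA and 158 and 196 in slr1- total RNA (log2 1.27 ± 0.15), and sup35 differed by 1.10 ± 0.16. The elongation factor genes tef3, for the fungal factor eEF3, and tef5, for a subunit that recharges eEF1A, fell. Values of tef3 were 2848 and 3528 in slr1- polysome RNA and 4812 and 4761 in slr1- total RNA (log2 -0.59 ± 0.13), and tef5 differed by -0.54 ± 0.10. Polysome and total values of these 4 genes did not overlap, and the falls of tef3 and tef5 did not pass with library sizes alone. With factors computed without ribosomal protein genes the list's median of 0.12 turned to -0.26.

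Aminoacyl-tRNA synthetases charge tRNAs with amino acids, and 12 of their 18 listed genes rose and 0 fell (median 0.67). The aspartate enzyme gene drs1 had 576 and 611 normalised counts in slr1- polysome RNA and 161 and 222 in slr1- total RNA (log2 1.63 ± 0.18). The cofactor gene asc1, for a protein that binds the methionyl and glutamyl enzymes, differed by 1.58 ± 0.21, and frs2, for the phenylalanine enzyme, by 1.22 ± 0.17. With factors computed without ribosomal protein genes 7 of the 18 rose and 3 fell.

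Ribosome assembly genes also rose, 11 of 15, with 2 that fell (median 0.68). The product of gar1 belongs to the particle that converts uridine to pseudouridine in ribosomal RNA, and this gene had 1026 and 784 normalised counts in slr1- polysome RNA and 319.6 and 192 in slr1- total RNA (log2 1.82 ± 0.24). The nucleolin gene gar2 had 991 and 831 in slr1- polysome RNA and 297 and 264 in slr1- total RNA (log2 1.70 ± 0.15). The box C/D particle gene nop56 and the helicase gene has1 differed by 1.45 ± 0.18 and 1.35 ± 0.18. The 2 genes that fell were fib1, for the methyltransferase fibrillarin, and snu13, a U3 particle gene (log2 -0.48 ± 0.11). In fib1 the groups overlapped, with 329 and 247 in slr1- polysome RNA and 585 and 318 in slr1- total RNA (log2 -0.65 ± 0.25), and neither fall passed with library sizes alone. The fall of fib1 also did not pass with limma-voom, without replicate 1 of slr1- total RNA or without replicate 2 of slr1- polysome RNA. With factors computed without ribosomal protein genes 7 rose and 3 fell, and without replicate 1 of slr1- polysome RNA 7 rose.

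For RNA polymerases I and III, which make ribosomal RNA and tRNA, rpa2 (log2 0.90 ± 0.16) and rpc10 (0.87 ± 0.19) rose and rpa43 (-1.08 ± 0.21) fell among 4 listed genes (median 0.46). With factors computed without ribosomal protein genes 2 rose and 2 fell, with a median of 0.08. The La protein, which binds the ends of new polymerase III transcripts and is related to LARP1 through its La motif, is encoded by sla1. Its gene had the second largest rise, with 695 and 448 normalised counts in slr1- polysome RNA and 133 and 188 in slr1- total RNA (log2 1.84 ± 0.24). The groups did not overlap, as the rule for naming the largest rises required. Among the 4 La and LSm genes it was the only one that rose, lsm6 fell (log2 -0.65 ± 0.20) and 2 did not pass (median 0.35, which turned to -0.03 with factors computed without ribosomal protein genes). The fall of lsm6, whose product belongs to the ring that binds U6 RNA, did not pass with library sizes alone, without replicate 1 or replicate 2 of slr1- total RNA or without replicate 1 of slr1- polysome RNA. Without replicate 2 of slr1- total RNA 2 of the 4 genes rose.

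Chaperone genes were taken in 4 lists, whose differences from each other were not tested. CCT is the cytosolic ring that folds actin and tubulin, and 7 of its 7 listed genes rose in slr1- polysome RNA (median 1.16), also when any 1 library was left out and under each scaling tried. Values of cct4 were 417 and 372 normalised counts in slr1- polysome RNA and 116 and 156 in slr1- total RNA (log2 1.53 ± 0.17), and cct8 and cct5 differed by 1.26 ± 0.17 and 1.26 ± 0.16. Of the cytosolic Hsp70, Hsp90 and co-chaperone genes 7 of 9 rose and 0 fell (median 0.98). The J-protein gene mas5 had 821 and 762 in slr1- polysome RNA and 288 and 291 in slr1- total RNA (log2 1.45 ± 0.15). The Hsp90 activator gene aha1 had 721 and 673 in slr1- polysome RNA and 247 and 266 in slr1- total RNA (log2 1.44 ± 0.14), and zuo1, for a J-protein that binds ribosomes in budding yeast, differed by 1.06 ± 0.13. Both groups of libraries were apart in each of these genes.

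In the list of ER folding genes 3 of 4 genes fell and 0 rose (median -1.43), also with library sizes alone. The disulfide isomerase gene pdi2 had the largest fall of a nuclear gene, with 39.1 and 51.8 normalised counts in slr1- polysome RNA and 196 and 267 in slr1- total RNA (log2 -2.34 ± 0.23, 5.06-fold lower). The ER Hsp70 gene bip1 had 213 and 226 in slr1- polysome RNA and 522 and 779.9 in slr1- total RNA (log2 -1.57 ± 0.20), and the calnexin gene cnx1 differed by -1.30 ± 0.22. The mitochondrial Hsp70 gene ssc1, whose product pulls imported proteins into the matrix, had 307 and 272 in slr1- polysome RNA and 997 and 1200.2 in slr1- total RNA (log2 -1.92 ± 0.16). Of the 3 listed mitochondrial chaperone genes ssc1 and the chaperonin gene mcp60 fell (-0.48 ± 0.18 for mcp60) and hsp10, for the co-chaperonin, did not pass (0.16 ± 0.13), with a median of -0.48. The fall of mcp60 did not pass with library sizes alone, among genes of at least 500 counts, without replicate 2 of slr1- total RNA or with replicate 2 of slr1- polysome RNA left out. For pdi2, bip1, cnx1 and ssc1 there was no overlap between the groups, and all 4 also fell in WT, where the log2 differences were -2.34 for pdi2, -1.81 for bip1, -1.61 for cnx1 and -1.99 for ssc1.

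Nuclear genes for respiration were mixed. Of 16 listed genes 5 fell and 3 rose (median 0.14, which turned to -0.24 with factors computed without ribosomal protein genes). Of all listed genes 30.7% fell and 34.0% rose. The ATP synthase beta subunit gene atp2 had 324 and 311 normalised counts in slr1- polysome RNA and 674 and 793 in slr1- total RNA (log2 -1.21 ± 0.14), and the succinate dehydrogenase gene sdh1 had 114 and 120.3 in slr1- polysome RNA and 227 and 309 in slr1- total RNA (log2 -1.19 ± 0.19). The cytochrome c oxidase subunit gene cox13 had 606 and 556 in slr1- polysome RNA and 273 and 279 in slr1- total RNA (log2 1.07 ± 0.18). Thus atp2 and sdh1 were low in polysome RNA and cox13 was high, each without overlap. The count of genes that rose was 1 with DESeq2, without replicate 1 of slr1- polysome RNA, without replicate 2 of slr1- total RNA or without replicate 2 of WT polysome RNA. In the mitochondrial protein import list (TOM and TIM complexes) 2 of 8 genes rose and 1 fell, with a median of -0.04, which was 0.36 with library sizes alone, and 0 rose without replicate 1 of slr1- polysome RNA or without replicate 1 of slr1- total RNA.

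Glycolysis and fermentation genes, among the most abundant mRNAs of yeast, had a median of -0.33, with 7 of 13 lower and 1 higher. The phosphoglycerate kinase gene pgk1 had 4849 and 4983 normalised counts in slr1- polysome RNA and 10209 and 10030.5 in slr1- total RNA (log2 -1.04 ± 0.15). The enolase gene eno101 had 7894.5 and 8431 in slr1- polysome RNA and 15903 and 17891 in slr1- total RNA (log2 -1.05 ± 0.20), and the pyruvate decarboxylase gene pdc101 differed by -0.56 ± 0.09. All 3 genes were lower in both polysome libraries than in both total libraries. With library sizes alone the list had 2 lower and 5 higher genes and a median of 0.07, and pdc101 did not pass. In WT 0 of the 13 fell and 1 rose (median -0.01), and none of the strain differences of this list passed the test. In the redox and stress list 2 of 8 genes fell and 1 rose (median -0.07, and 0.34 with library sizes alone), and pmp20, a thioredoxin-related gene, had the largest fall (-1.41 ± 0.16).

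Amino acid synthesis genes spread widely. Of 31 genes 13 rose and 6 fell (median 0.27, which turned to -0.12 with factors computed without ribosomal protein genes). These shares were close to those of the 401 genes outside the ribosomal protein lists, of which 174 rose and 79 fell (median 0.26). The serine pathway gene ser1 had 336 and 414 normalised counts in slr1- polysome RNA and 99.1 and 128 in slr1- total RNA (log2 1.72 ± 0.22), and the lysine gene lys3 and the threonine and methionine pathway gene hom2 differed by 1.15 ± 0.15 and 1.07 ± 0.13. Of the 6 genes that fell, 5 act in the synthesis of branched-chain amino acids (ilv1, ilv3, ilv5, ilv6 and leu3, a grouping made after their values were seen), whereas of the other listed genes of that synthesis leu2 rose (0.43 ± 0.17, edgeR adjusted p 0.0452), and leu1 (-0.29 ± 0.15) and eca39 (0.09 ± 0.12) did not pass. The dehydratase gene ilv3 had 210.5 and 212 in slr1- polysome RNA and 636 and 850.4 in slr1- total RNA (log2 -1.81 ± 0.16), and ilv6, for the regulatory subunit of acetolactate synthase, differed by -1.26 ± 0.14. The differences of ilv1, ilv5 and leu3 were -1.01 ± 0.21, -0.85 ± 0.12 and -0.69 ± 0.18. The other gene that fell was arg1, for the acetylornithine aminotransferase of arginine synthesis (-1.22 ± 0.14). Of the purine and pyrimidine genes 8 of 14 rose and 1 fell (median 0.44), among them the ribonucleotide reductase gene suc22 (1.35 ± 0.21) and the CTP synthase gene cts1 (1.26 ± 0.15). With factors computed without ribosomal protein genes 4 rose and 4 fell, and 5 rose without replicate 1 of slr1- polysome RNA or without replicate 1 of slr1- total RNA.

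In ergosterol synthesis, the pathway of the fungal membrane sterol, 5 of 8 genes rose and 2 fell (median 0.55). The gene hcs1, for the synthase of 3-hydroxy-3-methylglutaryl-CoA, had 481 and 562 normalised counts in slr1- polysome RNA and 206 and 237 in slr1- total RNA (log2 1.24 ± 0.17). The squalene synthase gene erg9 and erg28 also rose (log2 0.82 ± 0.18 and 0.70 ± 0.17), and erg28 did not pass with factors computed without ribosomal protein genes. The sterol desaturase gene erg5 had 86.7 and 84 in slr1- polysome RNA and 230.2 and 309 in slr1- total RNA (log2 -1.66 ± 0.19), and the methylsterol oxidase gene erg25 differed by -1.25 ± 0.20. Fatty acid genes likewise went both ways, with 3 of 7 higher and 2 lower. The acetyl-CoA carboxylase gene cut6, with the longest coding region of the listed genes, had 308 and 454 in slr1- polysome RNA and 91 and 141 in slr1- total RNA (log2 1.72 ± 0.29). The elongase family gene elo2 had 86.7 and 106 in slr1- polysome RNA and 238 and 324 in slr1- total RNA (log2 -1.54 ± 0.20). In hcs1, erg9, erg28, erg5, erg25, cut6 and elo2 the groups did not overlap. Without replicate 1 of slr1- polysome RNA 3 ergosterol genes rose, and without replicate 1 of slr1- total RNA 1 fatty acid gene rose. The median of the fatty acid list was 0.20 and turned to -0.18 with factors computed without ribosomal protein genes.

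Of the plasma membrane and cell wall genes 2 of 7 fell and 2 rose (median -0.14, and 0.26 with library sizes alone), and 0 rose without replicate 1 of slr1- total RNA. The cell wall glucan-remodelling gene gas2 fell (-1.03 ± 0.16). The tropomyosin gene cdc8, whose product coats actin cables, rose (1.34 ± 0.17), as did 2 of the 6 other cytoskeleton genes, and 0 fell (median 0.35, and -0.02 with factors computed without ribosomal protein genes). Of the 2 listed histone genes htb1 rose (1.09 ± 0.16) and hht2 did not pass (0.22 ± 0.13). Further genes with large rises were nap1, nhp6 and cdb4. The histone chaperone gene nap1 had 521 and 418 normalised counts in slr1- polysome RNA and 118 and 159 in slr1- total RNA (log2 1.76 ± 0.20). The high-mobility group gene nhp6 and cdb4, for a peptidase-family protein known as a curved DNA-binding protein, differed by 1.60 ± 0.19 and 1.77 ± 0.18.

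The 3 genes of the transcription regulator list rose, with a median of 1.40. This list was chosen with earlier results of these data known, so its direction in slr1- and in WT is not independent evidence. The GATA-type factor gene fil1 had 667 and 569 normalised counts in slr1- polysome RNA and 175 and 243 in slr1- total RNA (log2 1.57 ± 0.19). Its annotated leader, the stretch before the coding region, is 965 bases long and holds 6 upstream ATG triplets. The gene sfp1, with a leader of 881 bases, and pac2 differed by 1.31 ± 0.16 and 1.40 ± 0.17. All 3 also rose in WT (median 1.21).

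**Figure D4:**
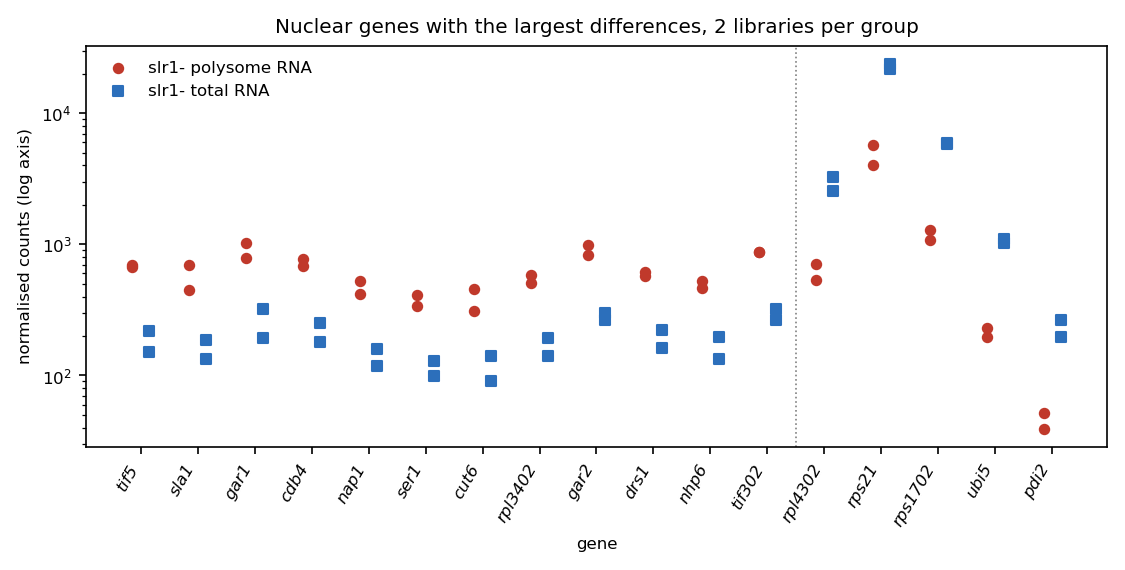
Normalised counts (vertical log axis) in the 2 slr1- polysome libraries (red circles) and the 2 slr1- total libraries (blue squares) for the 12 genes with the largest rises (left of the dotted line) and the 5 nuclear genes among the 12 with the largest falls (right). The genes were chosen among calls without overlap between the groups, so their separation follows from that rule. Genes run from tif5 (1.89 ± 0.19) at the left, with polysome values above total values, to pdi2 (-2.34 ± 0.23) at the right, with polysome values below them.

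The difference in slr1- varied with the length of the coding region. Across the 515 genes with an annotated coding length, Spearman's rho with the log2 difference was 0.38, a description over genes that are not independent and that share the same 4 libraries. Genes in the shortest quartile, with coding regions of 150 to 450 bases, had a median of -0.35, and 15 of 129 rose and 62 fell. In the longest quartile, of 1401 to 6744 bases, the median was 0.47, and 69 of 129 rose and 22 fell. Ribosomal protein genes filled 69 of the 129 places in the shortest quartile and 0 in the longest. Within the 126 ribosomal protein genes rho was 0.33, with a median of -0.90 in their shortest quartile and -0.37 in their longest, and within the 389 other genes it was 0.21. In WT rho was 0.41 over the same 515 genes.

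Leaders were compared with the reference annotation's lengths. Over 122 ribosomal protein genes rho between leader length and the log2 difference in slr1- was 0.29 (0.52 in WT), and over 380 other genes it was 0.03. For 48 names with both copies' leaders annotated, the lower copy had the shorter leader in 32, the longer in 14 and an equal one in 2. The 32 include rpl801 with rpl8, which are not copies of the same protein. The median leader was 17 bases for the lower and 24.5 bases for the higher copy. The lower copy had the shorter leader in 7 of the 10 proteins with a gap above 1, among them eS17, with leaders of 12 bases in rps1702 and 28 bases in rps1701. Of the 44 genes with a leader of at least 250 bases 22 rose and 7 fell (median 0.36), beside 155 and 140 of 458 genes with a shorter annotated one (median 0.07). None of the 44 is in the ribosomal protein lists. Among the 336 genes with a shorter leader outside those lists 150 rose and 60 fell (median 0.28).

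WT polysome RNA was compared with WT total RNA in the same fit and shares no library with the slr1- comparison. In WT 262 genes passed (49.7%), 110 higher (20.9%) and 152 lower (28.8%), and 163 passed without replicate 1 of WT polysome RNA. Across the 527 genes rho between the slr1- and WT log2 differences was 0.87, and 449 had the same sign. Of the genes lower in slr1- 127 were lower in WT too, which is 78.4% of the slr1- list and 83.6% of the WT list. Of the genes higher in slr1- 90 were higher in WT too, 50.3% of the slr1- list and 81.8% of the WT list. The log2 differences were spread more widely in slr1-, with an SD over genes of 0.95 in slr1- and 0.78 in WT. Several lists whose genes rose had a higher median in slr1- than in WT, among them CCT (1.16 in slr1- and 0.54 in WT), the cytosolic chaperones (0.98 in slr1- and 0.28 in WT) and eIF3 (0.74 in slr1- and 0.31 in WT), and the ribosomal protein median was -0.52 in slr1- and -0.37 in WT. Median strain differences (slr1- minus WT) were 0.68 for CCT, 0.63 for the cytosolic chaperones and 0.55 for eIF3. Over all 527 genes the median strain difference was 0.15, and over the 401 genes outside the ribosomal protein lists it was 0.24. A part of these list gaps is thus shared with other listed genes. The list differences were not tested as lists. A higher ratio can reflect a higher level in polysome RNA or a lower one in total RNA. In unscaled polysome counts, slr1- then WT, cct4 had 394 and 359, then 373 and 371. Values of tif302 were 828 and 842, then 821 and 844, and those of mas5 776 and 735, then 545 and 607. In total RNA cct4 had 142 and 173, then 271 and 274. There tif302 had 321 and 355, then 626 and 605, and mas5 352 and 322, then 520 and 432.

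Gene by gene, 2 strain differences (0.38%) passed in the edgeR test of slr1- minus WT, and 140 genes had an unadjusted p under 0.05, 96 with a positive and 44 with a negative difference. The median strain difference of all listed genes was itself positive (0.15). DESeq2 called 37 genes and limma-voom 0. The polysome over total difference of aha1 was 1.44 ± 0.14 in slr1- and 0.28 ± 0.14 in WT, a strain difference of 1.17 ± 0.20 (adjusted p 0.0353). Its WT values were 472 and 440.0 normalised counts in polysome RNA and 406 and 347 in total RNA. SPMIT.10.1 had -5.32 ± 0.12 in slr1- and -4.31 ± 0.12 in WT, a strain difference of -1.01 ± 0.15 (adjusted p 0.0221), and its WT values were 358 and 358 in polysome RNA and 6961 and 7247 in total RNA. Neither difference passed with limma-voom, with factors computed without ribosomal protein genes, with either slr1- polysome library left out, without replicate 1 of slr1- total RNA or without replicate 1 of WT polysome RNA, and that of aha1 also did not pass without replicate 2 of WT polysome RNA or without the SPMIT genes. The count of strain differences was 77 without replicate 2 of slr1- total RNA, 32 and 5 without replicates 1 and 2 of WT total RNA, and 0 without replicate 1 of slr1- total RNA, with either slr1- polysome library left out or without replicate 1 of WT polysome RNA.

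**Figure D5:**
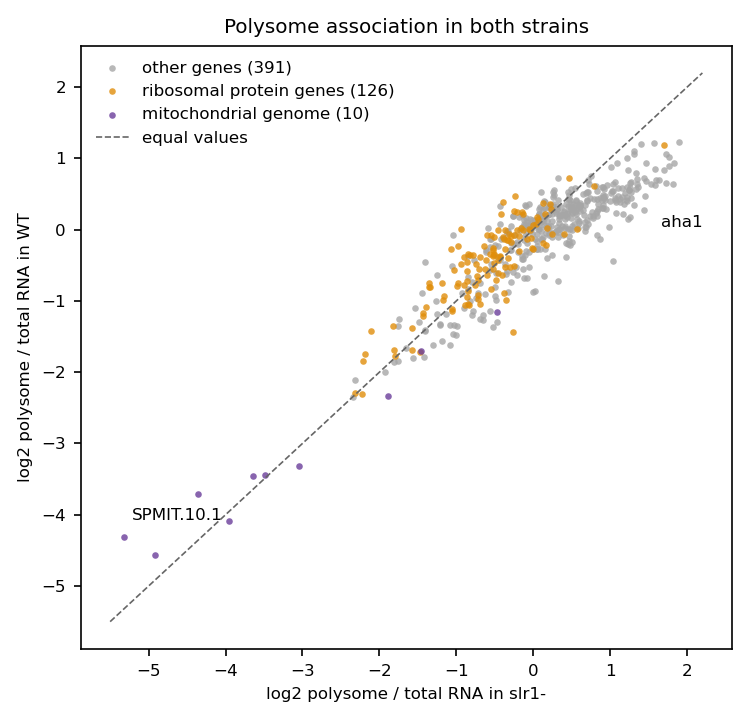
Each point is a listed gene, placed by its log2 difference of polysome over total RNA in slr1- (horizontal) and in WT (vertical), with the 10 mitochondrial genome genes in purple and the 126 ribosomal protein genes in orange. Points follow the dashed line of equal values (rho 0.87), and the 2 genes whose strain difference passed the edgeR test, aha1 and SPMIT.10.1, are named.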

How the data were processed

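Per the labels' protocols, TRIzol RNA was rRNA-depleted before stranded library preparation, and reads were 50 bp and single-end. The submitters' processing notes name Bowtie and RSEM. The genome build they used is not given in the sources used here, nor are tool versions, so no coordinates or sequences are printed. The authors' deposited table gives whole-number counts per gene and library. Gene names, coding lengths and leaders came from RefSeq assembly ASM294v3, matched by identifier for 515 of 527 genes, all protein-coding.

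The main test was edgeR's quasi-likelihood test (edgeR 4.0.16, R 4.3.3) with TMM factors, a mean for each of the 4 groups and 8 libraries in 1 fit (biological coefficient of variation 0.113), checked on simulated data. Tests were two-sided, with Benjamini-Hochberg adjustment across the 527 genes and calls at 0.05. No filter on low counts was applied beyond any made for the deposited table. The SE is the absolute log2 difference divided by the square root of the F statistic. Alternatives used DESeq2 1.42.0, limma 3.58.1 (voom), DESeq2 size factors, TMM factors without ribosomal protein genes, library sizes alone, the slr1- libraries only, genes of at least 500 counts, ribosomal protein copies summed, no SPMIT genes, replicate blocks and leaving out each library.

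The comparison and the gene lists were chosen with earlier results of these data known, so a list's direction is not independent evidence. Named genes were the 12 largest rises and the 12 largest falls among calls with no overlap and at least 10 normalised counts on average, up to 3 per list and direction by p (lists of at least 3 genes), and the strain differences past the threshold. Of these, fewer are named in places, and the other copies of ribosomal proteins were named for their gap.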

Additional observations from a re-analysis of the deposited data

Results flagged for a closer look

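The polysome over total RNA difference was not the same in slr1- as in WT for 2 genes in the edgeR interaction test. For SPMIT.10.1 the strain difference was -1.01 (adjusted p 0.0221), with both slr1- polysome libraries below both WT polysome libraries and both slr1- total libraries above both WT total libraries. For aha1 it was 1.17 (adjusted p 0.0353), with slr1- values above WT values in polysome RNA and below them in total RNA, without overlap in either. Both calls depended on single libraries, as given with their values.

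The difference had opposite signs in the strains, with no overlap between polysome and total libraries in either, for 2 further genes. The eS26 copy rps2601 had a log2 difference of 0.40 in slr1- and -0.055 in WT, and ecm33, for a cell surface protein, had 0.43 in slr1- and -0.19 in WT. The strain difference of neither passed the edgeR interaction test (adjusted p 0.109 for rps2601 and 0.105 for ecm33). Both WT differences were small beside the 0.41 and 0.37 by which other scalings moved the median of all genes in slr1-. The opposite signs are therefore not firm, least of all for rps2601. Of the 527 genes 449 had the same sign in both strains.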

How the results depend on the processing

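Genes higher and lower in slr1- polysome RNA numbered 179 and 162, and 100 and 246 with TMM factors without ribosomal protein genes, 292 and 94 with library sizes alone, 99 and 98 among genes of at least 500 counts, and 129 to 183 and 144 to 173 when 1 library was left out. The WT count of 262 was 160 among genes of at least 500 counts and 163 to 283 with a library left out. The strain difference count of 2 was 37 with DESeq2, 0 with limma-voom, with TMM factors without ribosomal protein genes and without SPMIT genes, 31 with library sizes alone, 13 among genes of at least 500 counts, 4 with copies summed, and 0 to 77 with a library left out. The ribosomal protein median of -0.52 was -0.91 and -0.11 under the 2 scalings above, -0.36 among genes of at least 500 counts, -0.64 with copies summed and -0.63 to -0.43 with a library left out. The coding length rho of 0.38 was 0.45 among genes of at least 500 counts and 0.31 to 0.44 with a library left out, and was not run with copies summed. Leaving out a library leaves a group with 1 sample, assumed to vary like the others. The cause of these changes was not tested, beyond the smaller number of genes or libraries that some settings leave.

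Same-numbered polysome and total libraries deviated together with a correlation of 0.07 in slr1- and 0.29 in WT, over genes. With 2 numbers per strain and no shared culture in the labels, the numbers are not shown to pair the libraries. With a replicate block per pair 187 genes were higher and 170 lower in slr1- and 46 strain differences passed, and with a replicate block over all groups 9 strain differences passed. Of 2051 values of named genes under 19 alternatives, 1910 kept their direction and side of the threshold, 137 lost the call and 4 reversed. Of these 4, grx1 was 0.10 and gua1 0.11 with library sizes alone, and trr1 was -0.019 and nda3 -0.022 with TMM factors without ribosomal protein genes. With 2 libraries per group and no library totals given, the spread between libraries limits the precision more than counting does for a gene of median count (627). This does not hold for genes with few counts, such as pdi2 with 37 and 50 counts in slr1- polysome RNA.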

Other observations

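Of the 527 genes 167 belonged to none of the gene lists. Among them 70 rose and 27 fell in slr1- polysome RNA, with a median of 0.25, beside 34.0% of all listed genes that rose and 30.7% that fell. The 167 hold no gene of the ribosomal protein lists. Of the 401 genes outside those lists 174 rose and 79 fell, with a like median of 0.26. Upstream ATG triplets in the annotated leader can divert scanning ribosomes. Of the 16 listed genes with at least 1 such triplet 8 rose in slr1- polysome RNA and 1 fell. Among them 15 are outside the ribosomal protein lists, and of these 8 rose and 1 fell (median 0.48). Of the 365 genes outside those lists whose annotated leader has no triplet, 164 rose and 66 fell (median 0.28). An effect of the triplets was not tested.

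The log2 difference in slr1- also varied with the abundance of the mRNA. Over the 515 genes with a coding length, Spearman's rho between it and the level in WT total RNA, in normalised counts per kilobase of coding region, was -0.52. It was -0.35 within the 126 ribosomal protein genes and -0.37 within the 389 other genes. These are descriptions over genes, which are not replicates. The level is divided by coding length, which itself had a rho of 0.38 with the log2 difference, so the 2 descriptions are not separate.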
